A study of Mus musculus with 24 samples.

Results

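The genes encoding the nuclear subunits of the oxidative phosphorylation complexes were followed in mouse hearts exposed to ischemia. They were taken by symbol: every gene of the array whose name begins with Ndufa, Ndufb, Ndufc, Ndufs, Ndufv, Sdh (a to d), Uqcr, Cox4, Cox5, Cox6, Cox7, Cox8 or Atp5, without the assembly factors Ndufaf and Sdhaf. This gave 81 of 18820 genes with a probe set paired with 1 symbol, and each gene is read by its brightest probe set. Complex I holds 34 of them, complex II 4, complex III 7, complex IV 17 and complex V 17. The 2 remaining genes carry a subunit name but are set apart: Cox7a2l, a factor for the assembly of respiratory supercomplexes, and Ndufa4l2, a hypoxia-inducible relative of Ndufa4. Ndufa4 is counted with complex IV. Uqcrc2, Cox7c and Ndufa13 lie only on probe sets shared with another symbol and were not analysed here.

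Total RNA from the left ventricle of male mice was hybridized on 24 whole-transcript arrays, 3 for each of 8 groups, with 1 mouse per array. Wildtype C57BL6 mice and Per2-/- mice, which carry a knockout of the circadian clock component Per2, were 12 to 16 weeks old and were operated at the same circadian time. In each genotype the groups were sham-operated hearts that had no ischemia (sham), 30 min of ischemia without reperfusion (I30), preconditioning by 4 cycles of 5 min of ischemia and 5 min of reperfusion (IP0), and 30 min of ischemia with 60 min of reperfusion (I30R60). The sample labels call the sham arrays untreated control, while the paper describes these hearts as sham operated. The study asked how Per2 bears on cardiac gene expression and metabolism during ischemia. Since the tissue was measured in bulk, fewer cells of a type and less RNA per cell cannot be told apart.

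Complex I takes electrons from NADH and complex II from succinate, both pass them through ubiquinone to complex III, and cytochrome c carries them to complex IV, which reduces oxygen. The proton gradient built on the way drives the ATP synthase, complex V. The heart depends on this chain for most of its ATP, and several subunits exist as pairs of isoforms, one of them kept for heart and skeletal muscle. The core subunits encoded by mitochondrial DNA were not analysed here.

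The subunit transcripts were among the brightest on the array and varied little. A mean log2 value over 10 was reached by 58 of 81 members (71.6%) and by 2.89% of all genes. Atp5b, the catalytic beta subunit of the ATP synthase, had the highest mean of the members, 13.0, and the testis isoform Cox7b2 the lowest, 1.77. Since each probe set has its own response, the order of such values is not an order of abundance. Cox6b2, Cox7b2 and Cox8c, known as testis isoforms, lay below 4.4, the median of all values, and differences of these 3 genes are close to background. The SD between arrays of a group had a median of 0.068 on the log2 scale over the members and 0.172 over all genes. The mean of all 81 members ran from 10.40 in the lowest array to 10.50 in the highest, with an SD between replicates of 0.0224.

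Per2 itself did not separate the genotypes at sham, with a log2 value of 5.79 (SD 0.41) in wildtype and 5.66 (SD 0.03) in Per2-/- hearts (log2 difference -0.13, standard error 0.27, adjusted p = 0.966). After I30 its arrays did not overlap, with 5.89 to 6.44 in wildtype and 4.94 to 5.30 in Per2-/- hearts, and the difference of -1.12 (standard error 0.27) missed the threshold (adjusted p = 0.0643). Where its probe set lies relative to the deleted part of the gene is not given in the sources used here, so these values check no label, and the arrays are called by their labels. The ventricular muscle markers (8 measured, such as Myh6 and Tnni3) had no called gene in any comparison of a treatment with sham. The atrial light chain Myl7 was between 5.22 and 11.2 in 4 arrays (2 of wildtype sham, 1 of Per2-/- sham and 1 of Per2-/- IP0) and at most 3.73 in the other 20. The mean of the 81 members was 10.45 to 10.48 in those 4 arrays and 10.40 to 10.50 in the others. Lung epithelium markers were raised in the wildtype I30 arrays (4 of 5 called, mean level 3.67 to 5.11 against 2.73 to 2.83 at sham). Neutrophil markers were raised after I30R60 (1 of 6 called in wildtype hearts, 5 of 6 in Per2-/- hearts). Their part in the values of the subunit genes was not tested.

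A gene is said to have risen or fallen where limma's adjusted p (Benjamini-Hochberg over all genes) was under 0.05. By this rule 3 of the 81 members changed in any comparison: Uqcrfs1, Cox5a and Ndufc1. The share of all genes called ran from 0% to 9.34% across the comparisons, and the share called in at least 1 was not counted. The 250 bases before the annotated start of these 3 members, from RefSeq on GRCm38.p6, are shown because they passed this rule. Capitals mark matches on either strand to 9 short motifs known from promoters of mitochondrial, hypoxia-responsive or clock-controlled genes.
Uqcrfs1, chr13:30545317-30545566, reverse strand: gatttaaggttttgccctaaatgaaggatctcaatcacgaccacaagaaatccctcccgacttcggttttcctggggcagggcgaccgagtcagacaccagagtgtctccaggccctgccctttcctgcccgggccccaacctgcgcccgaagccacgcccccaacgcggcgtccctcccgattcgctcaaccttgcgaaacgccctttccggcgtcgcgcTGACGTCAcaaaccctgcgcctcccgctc
Cox5a, chr9:57520982-57521231, forward strand: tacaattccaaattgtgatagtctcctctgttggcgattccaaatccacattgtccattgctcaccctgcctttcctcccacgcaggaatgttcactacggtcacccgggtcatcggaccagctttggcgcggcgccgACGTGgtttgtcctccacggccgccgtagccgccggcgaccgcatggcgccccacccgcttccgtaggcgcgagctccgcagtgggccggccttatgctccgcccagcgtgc
Ndufc1, chr3:51408956-51409205, reverse strand: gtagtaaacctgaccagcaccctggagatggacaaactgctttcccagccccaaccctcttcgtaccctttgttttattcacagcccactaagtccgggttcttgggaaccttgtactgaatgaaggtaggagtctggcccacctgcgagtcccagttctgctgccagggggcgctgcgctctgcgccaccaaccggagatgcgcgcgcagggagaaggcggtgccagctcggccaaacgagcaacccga
The capitals before Uqcrfs1 are TGACGTCA, the palindromic cyclic AMP response element (CRE), which begins 29 bases before the start and contains its core TGACG on both strands. The capitals before Cox5a are ACGTG, the core of the hypoxia response element, 112 bases before the start. None of the 9 motifs was found in the Ndufc1 window.

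Such sequences were available for 67 of the 81 members and for 27025 genes in all. A full CRE stood before 4 of the 67 members (5.97%) and 1.77% of all genes, and its core TGACG, which it contains, before 22 (32.8%) and 19.8%. The NRF1 core CGCATGCG was found in 7 members (10.4%) against 1.75% of all genes, and the ETS site CCGGAAG, bound by GABP, in 12 (17.9%) against 7.83%. The estrogen-related receptor site AAGGTCA stood in 5 (7.46%) against 4.7%, and the YY1 site AAGATGGC in 1 (1.49%) against 1.83%. ACGTG was found in 14 members (20.9%) and 18.5% of all genes, and the E-box CACGTG, which contains it and is bound by CLOCK and BMAL1, in 6 (8.96%) against 6.86%. The AP-1 site TGANTCA was found in 4 (5.97%) against 7.82%. These shares are descriptions of letters in the windows, with no test.

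After 30 min of ischemia no subunit gene passed the test in either genotype. In wildtype hearts limma called 0 of 81 members, 1 of 81 had an unadjusted p under 0.05 and the methods' t-test called 0 (7 unadjusted, against 14.7% of all genes). Among all genes limma called 2.39%, and 19.6% had an unadjusted p under 0.05. The median member difference was -0.02 on the log2 scale (0.0054 with each array centred on its median), against 0.01 over all genes (0.0342 with centring). With genes dimmer than the median of all values left out, it was -0.0196 over the 78 members kept and -0.0753 over all genes kept. The 95% interval of each of the 81 members lay within 1.5-fold in both directions. Among the Per2-/- groups limma called 0 members, 3 had an unadjusted p under 0.05 and the t-test called 0 (6 unadjusted, against 6.64% of all genes), with 0% of all genes called by limma and 7.14% past its unadjusted threshold. The median was -0.04 there (-0.0367 without the dim genes, against -0.057 over all genes kept), with all 81 intervals again within 1.5-fold.

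**Figure D1:**
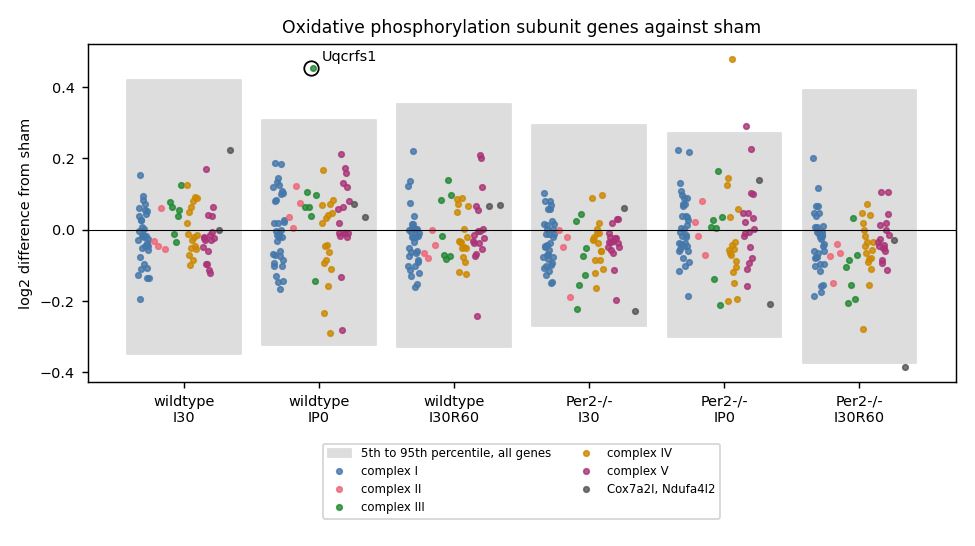
Log2 difference of each of the 81 genes from sham (vertical axis) in the 6 comparisons of a treatment with sham (horizontal axis), coloured by complex, over the range between the 5th and 95th percentile of all genes (grey). Most points lie inside the grey range, and the circled point, Uqcrfs1 in wildtype IP0 hearts at 0.45, is the gene past the adjusted threshold.

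Averaged over both genotypes, I30 gave no called member (5 of 81 unadjusted, all lower), against 1.61% of all genes called and 20.1% unadjusted. The methods' t-test compares 2 groups and was not run for such averages or for interactions. Ndufa6, an accessory subunit of complex I, had the lowest value of the members, -0.16 (standard error 0.05, adjusted p = 0.101). The catalytic and core subunits stood close to sham in wildtype I30 hearts: the log2 difference was -0.02 for Atp5b, -0.05 for Atp5a1, -0.03 for Sdha and -0.05 for both Ndufv1 and Ndufs1. None of them passed the test.

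The largest difference of a member that passed the test was that of Uqcrfs1 after preconditioning. Uqcrfs1, the Rieske iron-sulfur protein of complex III that hands electrons from ubiquinol to cytochrome c1, had log2 values of 9.58, 9.69 and 9.68 in wildtype sham hearts and 10.05, 10.09 and 10.17 in wildtype IP0 hearts. All 3 IP0 arrays lay above every other array of the series. The difference was 0.45 (standard error 0.07, adjusted p = 0.00398 by limma). In Per2-/- hearts Uqcrfs1 was 9.64, 9.71 and 9.86 at sham and 9.96, 9.85 and 9.90 after IP0. Here the groups overlapped by 1 array, and the difference was 0.16 (standard error 0.07, adjusted p = 0.564). The response of the genotypes differed by -0.29 (standard error 0.10), which did not pass the test (unadjusted p = 0.0125, adjusted p = 0.971), so a smaller rise in Per2-/- hearts is not shown. After I30 and I30R60 Uqcrfs1 did not pass the test in either genotype. Without the 4 arrays of high Myl7, which left 1 wildtype sham array, the wildtype IP0 difference was 0.42. The call was lost with only the 2 groups compared in the fit (adjusted p = 0.105). It was also lost by the methods' t-test (adjusted p = 0.198).

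In wildtype hearts 1 of 81 members was called after IP0, against 0.85% of all genes, and 11 of 81 had an unadjusted p under 0.05, 6 higher and 5 lower, against 12.1% of all genes. The methods' t-test called 0 there, and 23 of 81 members had an unadjusted p under 0.05, against 11.8% of all genes. For Per2-/- hearts limma called 0 (9 unadjusted, 6 higher and 3 lower) and the t-test 0 (8 unadjusted, against 7.9% of all genes), with 0.159% of all genes called by limma and 8.23% unadjusted. The member with the highest value there was Cox6b2, the dim testis isoform, at 0.48 (standard error 0.14, adjusted p = 0.297). The median member difference was 0.02 in wildtype and -0.01 in Per2-/- hearts, against 0.0007 and -0.0154 over all genes. With each array centred on its median, the Per2-/- value was 0.0686, against 0.0598 over all genes.

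Over both genotypes together 2 of 81 members rose after IP0 and none fell by the test, while 1.94% of all genes were called. An unadjusted p under 0.05 was reached by 19 members (9 higher, 10 lower), against 14.7% of all genes. Uqcrfs1 rose by 0.31 (standard error 0.05, adjusted p = 0.00318), which fell short of the threshold without the 4 arrays of high Myl7 (0.32, adjusted p = 0.0571). Cox5a, a nuclear-encoded subunit of complex IV, rose by 0.16 (standard error 0.04, adjusted p = 0.0487).

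The Cox5a values were 9.84, 9.90 and 9.87 in wildtype sham and 10.04, 9.99 and 10.08 in wildtype IP0 hearts. They were 9.79, 9.85 and 9.81 in Per2-/- sham and 9.95, 9.99 and 9.95 in Per2-/- IP0 hearts. In both genotypes every IP0 array lay above every sham array. The difference was 0.17 in wildtype and 0.15 in Per2-/- hearts, neither past the test alone (adjusted p = 0.195 and 0.467). The combined call stood near the threshold: leaving out any 1 of the 24 arrays gave an adjusted p of 0.0516 to 0.121. It was also lost with the replicate number of the labels as a block (adjusted p = 0.0653).

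**Figure D2:**
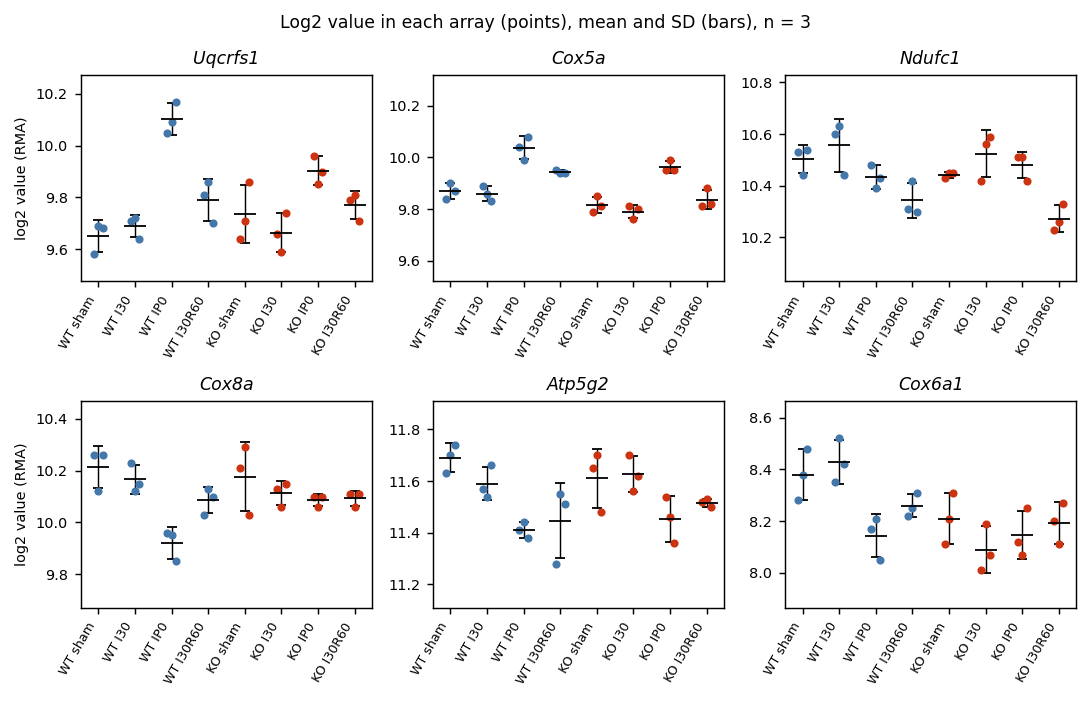
Log2 value (vertical axis) of 6 members in each array by group (horizontal axis, WT for wildtype and KO for Per2-/-); points are arrays, the long mark is the mean and the bars the SD of 3 arrays, and all panels span the same range of 0.8. Uqcrfs1 stands at 10.05 to 10.17 in WT IP0, above all other groups, and Cox6a1 lies lower in KO I30 (8.01 to 8.19) than in WT I30 (8.35 to 8.52).

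The members furthest below sham in wildtype IP0 hearts were Cox8a and Atp5g2. Cox8a, the liver-type isoform of subunit VIII of complex IV, was 10.26, 10.12 and 10.26 in wildtype sham and 9.96, 9.95 and 9.85 in wildtype IP0 hearts. The groups did not overlap, and the difference of -0.29 (standard error 0.07) missed the threshold (adjusted p = 0.0673). The difference of Cox8a in Per2-/- hearts was -0.09, with the 3 IP0 arrays inside the sham range. Atp5g2, 1 of 3 genes for the c subunit of the ATP synthase ring, was 11.63, 11.70 and 11.74 in wildtype sham and 11.41, 11.44 and 11.38 in wildtype IP0 hearts, again without overlap. Its difference was -0.28 in wildtype hearts (adjusted p = 0.119) and -0.22 over both genotypes (adjusted p = 0.051).

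With limma's moderation set both to follow intensity and to be robust, 10 of 81 members passed after IP0 over both genotypes, against 3.28% of all genes. Of these, Uqcrfs1 and Cox5a were higher, and Atp5g2, Cox8a, Uqcrh, Ndufs8, Cox7a1, Ndufb9, Atp5g1 and Cox8b were lower, by 0.11 to 0.22 on the log2 scale. In wildtype hearts alone 3 passed that way (Uqcrfs1, Cox8a and Atp5g2), against 1.6% of all genes.

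After I30R60 most subunit genes lay close to sham. The median difference was -0.02 in wildtype hearts and -0.04 in Per2-/- hearts (0.0016 with each array centred on its median), against -0.02 and -0.04 (0.0066 with centring) over all genes. Without dim genes the medians were -0.0206 and -0.0457 over the members, against -0.0356 and -0.0676 over all genes kept. The median size of the difference, without its sign, was 0.0633 over the members and 0.1148 over all genes in wildtype hearts, and 0.0582 and 0.1271 in Per2-/- hearts. The standard error of such a difference was also smaller for the members, with a median of 0.0724 against 0.1369 over all genes. The smaller size is thus not a sign of a weaker response. In wildtype hearts limma called 0 members (3 unadjusted) and the t-test 0 (7 unadjusted, against 11.2% of all genes), while limma called 2.47% of all genes and 13.4% were past its unadjusted threshold. In Per2-/- hearts limma called 0 (12 unadjusted, 11 of them lower) and the t-test 0 (6 unadjusted, against 13.8% of all genes), while limma called 4.79% of all genes and 17.8% were past its unadjusted threshold.

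Over both genotypes 1 of 81 members changed after I30R60, against 9.34% of all genes, and 12 members had an unadjusted p under 0.05 (2 higher, 10 lower), 14.8% against 22.2% of all genes. This was Ndufc1, an accessory subunit of complex I, which fell by 0.17 (standard error 0.05, adjusted p = 0.0398). Its values were 10.53, 10.44 and 10.54 in wildtype sham and 10.31, 10.42 and 10.30 in wildtype I30R60 hearts. In Per2-/- hearts they were 10.43, 10.45 and 10.45 at sham and 10.23, 10.26 and 10.33 after I30R60. In both genotypes every I30R60 array lay below every sham array. A second Ndufc1 probe set differed by -0.16 in wildtype and -0.10 in Per2-/- hearts, and with the mean of both probe sets the call was lost (adjusted p = 0.111). It was also lost with the replicate number as a block (adjusted p = 0.0517). Leaving out any 1 array gave an adjusted p of 0.0304 to 0.0907. With moderation that follows intensity and is robust, 9 of 81 members passed after I30R60, against 10.9% of all genes: Atp5g2, Ndufc1, Ndufs8, Uqcrc1, Sdhb, Ndufa3 and Ndufa8 were lower, and Atp5mpl and Ndufa1 higher.

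By complex, the differences were small in every group. Complex III, which holds Uqcrfs1, had the highest mean in wildtype IP0 hearts, 0.10 above wildtype sham, and complex II stood 0.06 above it. In Per2-/- I30R60 hearts all 5 complex means were below wildtype sham, from -0.06 for complex I to -0.04 for complex V. They were also below it with quantile normalization and with each array centred on its median, where complex V stood at -0.0015. In Per2-/- I30 hearts all 5 were below wildtype sham too, from -0.064 for complex I to -0.025 for complex III. Per2-/- sham hearts stood at -0.033 for complex I, -0.003 for complex IV and -0.02 for complex V, with complex II at 0.025 and complex III at 0.055. Values against wildtype sham thus hold genotype and treatment together. Against Per2-/- sham, all 4 subunits of complex II (3 with centring) and 6 of 7 subunits of complex III were lower in Per2-/- I30R60 hearts. Their medians were -0.07 and -0.10. The median over all genes was -0.04 in this comparison, and the share of all genes below 0 was not counted. Lower values were also found for 24 of 34 subunits of complex I (15 with centring), 13 of 17 of complex IV (9) and 11 of 17 of complex V (6). None of those genes passed the test.

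**Figure D3:**
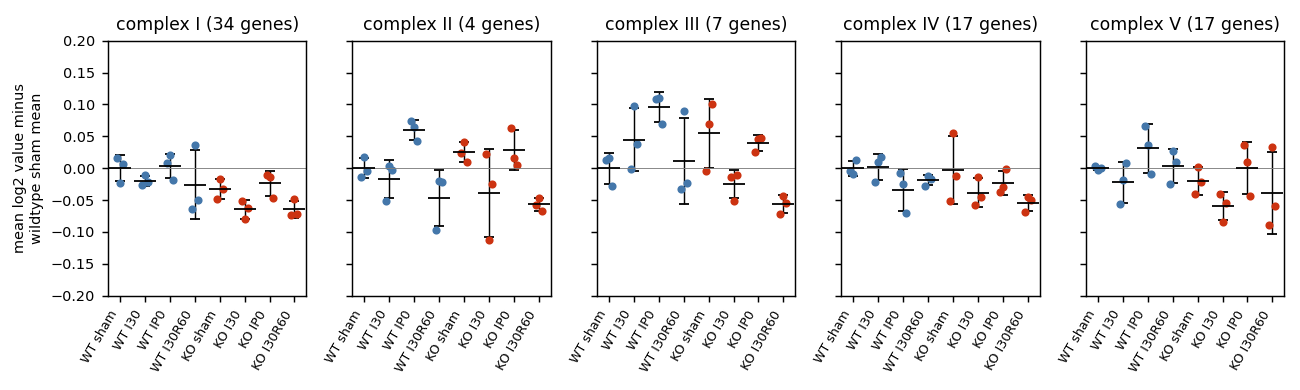
Mean log2 value of the members of each complex per array minus the mean of the 3 wildtype sham arrays (vertical axis), by group (horizontal axis); points are arrays, the long mark is the mean and the bars the SD of 3 arrays. All arrays lie between -0.11 and 0.11.

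None of the heart and muscle isoforms or their partners passed the test against sham in a single genotype. Cox6a2, the heart form of subunit VIa, differed from sham by -0.10 to 0.03 in the 6 comparisons, and Cox6a1, the form of most other tissues, by -0.23 to 0.05. Cox7a1, the heart form of subunit VIIa, differed by -0.16 to -0.04 and its partner Cox7a2 by -0.15 to 0.08. Cox8b, the heart form of subunit VIII, differed by -0.11 to -0.05. Cox4i1, the main form of subunit IV, differed by 0.02 to 0.13.

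The oxygen-responsive forms did not pass the test either. Cox4i2, the form of subunit IV known to be induced at low oxygen, was 6.48, 6.53 and 6.36 in wildtype sham and 6.68, 6.67 and 6.40 in wildtype I30 hearts, a difference of 0.12 (adjusted p = 0.627) with overlapping arrays. Ndufa4l2 was 5.66, 5.31 and 5.59 in wildtype sham and 5.98, 5.76 and 5.47 in wildtype I30 hearts, a difference of 0.22 (95% interval -0.07 to 0.52, adjusted p = 0.396). In Per2-/- hearts Ndufa4l2 was 5.91, 5.89 and 5.88 at sham and 5.61, 5.22 and 5.71 after I30R60. The I30R60 arrays lay below all sham arrays there, and the difference of -0.38 did not pass the test (adjusted p = 0.137). For Cox4i2 the interval in wildtype I30 hearts ran from -0.15 to 0.40, so differences within it remain possible with 3 arrays per group.

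**Figure D4:**
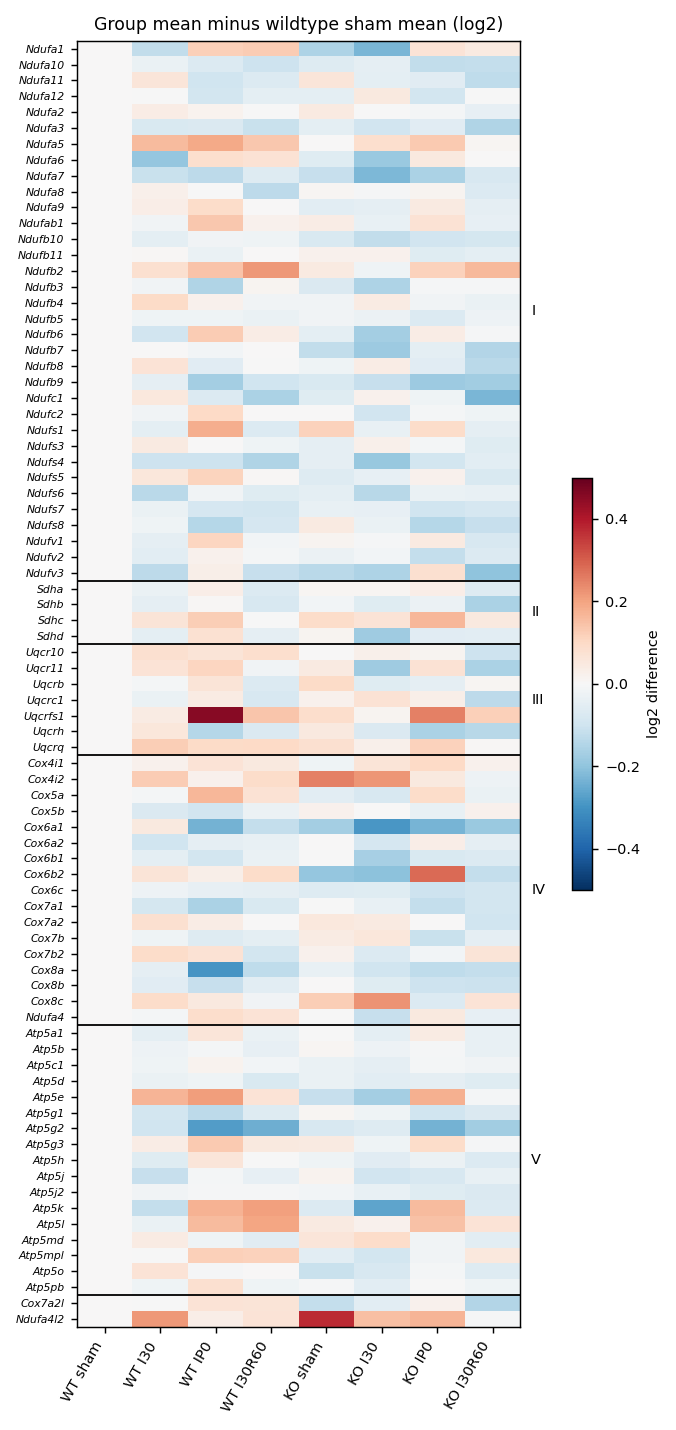
Mean log2 value of each of the 81 genes (rows, in blocks by complex) in the 8 groups (columns, WT for wildtype and KO for Per2-/-) minus the wildtype sham mean; red is higher, blue is lower, and the colour scale ends at 0.5 on both sides. Uqcrfs1 in WT IP0, at 0.45, is the darkest red cell. Cox6a1 is blue in all 4 KO columns and also in WT IP0 (-0.23) and WT I30R60 (-0.12).

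Between the genotypes no subunit gene passed the test in any treatment. At sham limma called 0 of 81 members (1 unadjusted) and the t-test 0 (4 unadjusted, against 7.7% of all genes), while limma called 0.266% of all genes and 7.38% had an unadjusted p under 0.05. After I30 limma called 0 (5 unadjusted, all lower in Per2-/- hearts) and the t-test 0 (8 unadjusted, against 9.38%), while limma gave 0.664% and 12.3% of all genes. After IP0 limma called 0 (3 unadjusted) and the t-test 0 (10 unadjusted, against 6.03%), while limma gave 0.0797% and 5.82%. After I30R60 limma called 0 (1 unadjusted) and the t-test 0 (2 unadjusted, against 6.33%), while limma gave 0.175% and 8.33%.

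No member passed the test of a different response to treatment in the genotypes either. The interaction was called by limma for 0 of 81 members after I30 (2 unadjusted), IP0 (2 unadjusted) and I30R60 (1 unadjusted), and for 0% of all genes each time. The unadjusted shares of all genes were 7.1%, 4.81% and 5.49%. Ndufa4l2 had the lowest interaction values, -0.45 after I30 and -0.45 after I30R60 (standard error 0.20 for both, adjusted p = 0.66 and 0.896). Both use the same sham arrays, where Per2-/- minus wildtype was 0.38 for Ndufa4l2 (standard error 0.14, adjusted p = 0.4825). Across the 81 members the wildtype and Per2-/- differences from sham, which share no arrays but share probe sets, had a Pearson correlation of 0.205 after I30, 0.557 after IP0 and 0.36 after I30R60. Over all genes it was 0.337, 0.399 and 0.633.

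Cox6a1 came closest to a genotype difference. After I30 it was 8.35, 8.52 and 8.42 in wildtype and 8.01, 8.19 and 8.07 in Per2-/- hearts. No array overlapped, and the difference of -0.34 (standard error 0.08) missed the threshold (adjusted p = 0.0648). At sham the arrays overlapped, with 8.28, 8.38 and 8.48 in wildtype and 8.11, 8.21 and 8.31 in Per2-/- hearts. After IP0 the genotypes did not differ, with a mean of 8.1474 in wildtype and 8.1476 in Per2-/- hearts, and after I30R60 the difference was -0.07. The mean difference over the 4 treatments was -0.14 (95% interval -0.23 to -0.06, adjusted p = 0.0856).

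Over the mean of the 4 treatments limma called 0 of 81 members, against 1.88% of all genes, and 8 had an unadjusted p under 0.05, all lower in Per2-/- hearts, against 12.6% of all genes. The 95% intervals of all 81 members lay within 1.25-fold in both directions. The median member was lower in Per2-/- hearts by 0.03 on the log2 scale, with 60 of 81 members below 0, while the median of all genes was 0.00. With moderation that follows intensity and is robust 2 members passed, Cox6a1 and Atp5o, the ATP synthase stalk subunit, against 2.79% of all genes. Ndufa10, a complex I subunit whose gene lies 1.02 Mb from Per2 on chromosome 1, differed by -0.04 (95% interval -0.10 to 0.03, adjusted p = 0.684). The other 4 members on that chromosome, Cox5b, Ndufb3, Ndufs1 and Sdhc, differed by -0.02 to 0.05.

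**Figure D5:**
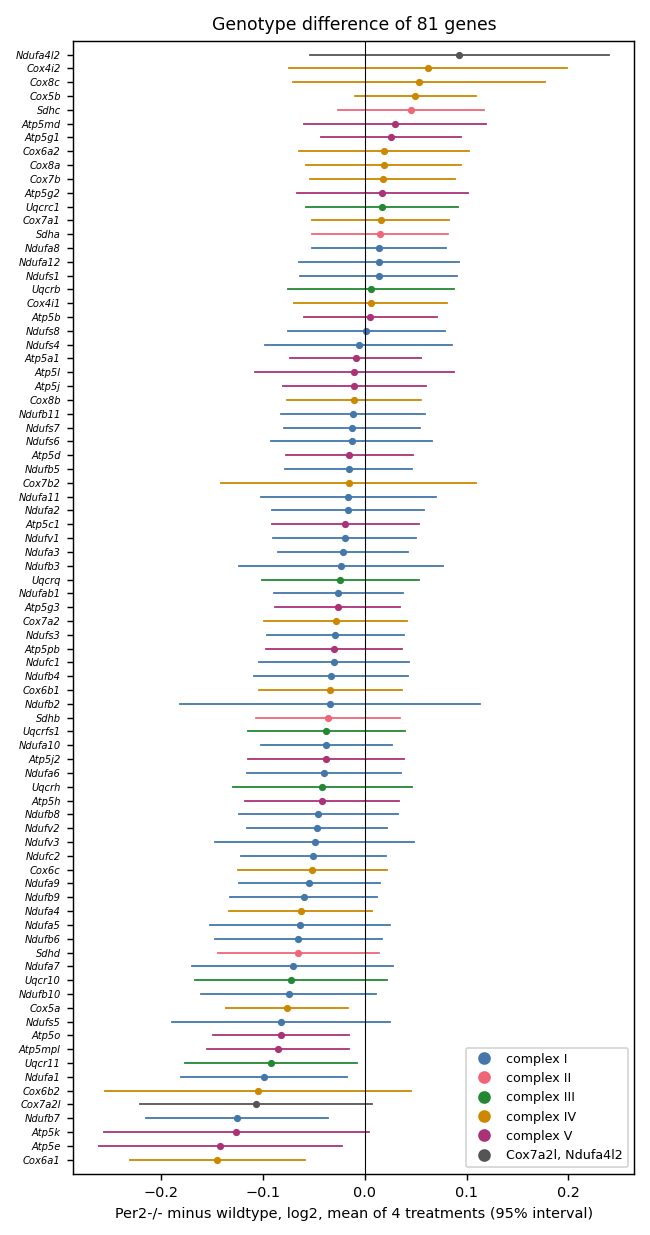
Per2-/- minus wildtype log2 difference over the mean of the 4 treatments (horizontal axis) for each of the 81 genes (vertical axis), with the 95% interval as a line and colour by complex. Cox6a1 is lowest at -0.14 and Ndufa4l2 highest at 0.09.

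A gene outside the list bears on these genotype comparisons and was chosen after its values were seen. Nnt, the transhydrogenase of the inner mitochondrial membrane, had log2 values of 10.26 to 10.76 in the wildtype and 11.33 to 11.67 in the Per2-/- arrays, without overlap (difference 0.96, standard error 0.04, adjusted p = 2.68e-12 over the mean of the 4 treatments). The C57BL/6J substrain is known to carry a partial deletion of Nnt, while the labels give 1 strain for both genotypes. Effects of Per2 and of any difference in substrain cannot be told apart here.

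Genes that act around the chain were also read, from lists chosen with earlier results known. Of 40 assembly factors of the respiratory complexes, none passed in any single-genotype comparison with sham. Over both genotypes 1 rose after IP0 (Ttc19, a complex III factor, by 0.26) against 1.94% of all genes, and 5 changed after I30R60, 12.5% of the list against 9.34% of all genes. Of these Surf1, which serves complex IV, was lower with a log2 difference of -0.22, Cox16 of -0.20, Uqcc3 of -0.23 and Ndufaf3 of -0.18, and the copper chaperone Cox17 was higher by 0.30. Of 19 genes for electron carriers and their supply, 2 changed over both genotypes after I30R60, 10.5% against 9.34% of all genes. Coq10b, a coenzyme Q binding protein, rose by 0.59 (adjusted p = 0.00407). Coq8a, needed for coenzyme Q synthesis, fell by 0.19, and by 0.29 in Per2-/- hearts alone (adjusted p = 0.0341).

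Of 20 regulators of transcription and mitochondrial DNA, 4 changed over both genotypes after I30R60, against 9.34% of all genes. Ppargc1b, a coactivator of mitochondrial genes, fell by 0.48 (adjusted p = 0.0172), and its relative Pprc1 rose by 0.38 (adjusted p = 0.00831). Both also passed in Per2-/- hearts alone, with a log2 difference of -0.69 for Ppargc1b and 0.50 for Pprc1. Ppara, the receptor that drives fatty acid oxidation genes, fell by 0.35 and Perm1 by 0.24. Ppargc1a differed by -0.03 (adjusted p = 0.937). Against these, the median of the 81 subunit genes in the same comparison was -0.03, and that of the 20 regulators -0.08.

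Of 74 mitochondrial ribosomal protein genes, 3 fell after I30R60 over both genotypes (Mrpl15, Mrpl54 and Mrps31) and Mrps33 rose after IP0, shares of 4.05% and 1.35% against 9.34% and 1.94% of all genes. Of 12 genes of the tricarboxylic acid cycle 1 fell after I30R60 over both genotypes, Dld, by 0.19. This is 8.33% of the list against 9.34% of all genes. Among 14 hypoxia-inducible genes, 2 rose after IP0 and 2 after I30R60 over both genotypes. Each is 14.3% of the list, against 1.94% of all genes after IP0 and 9.34% after I30R60. Ddit4, an inhibitor of mTOR signalling, rose after IP0 by 1.40 (adjusted p = 0.00409) and the glycolytic regulator Pfkfb3 after I30R60 by 1.73 (adjusted p = 7.93e-07), and both differences were larger than that of any oxidative phosphorylation member in the same comparison. Hexokinase Hk2 rose after IP0 by 0.25 (adjusted p = 0.0374), less than Uqcrfs1, and Ndrg1 rose after I30R60 by 0.43 (adjusted p = 0.0128). In single genotypes Ddit4 passed in wildtype IP0 hearts, at 1.55, and Pfkfb3 after I30R60 in both, at 1.59 in wildtype and 1.86 in Per2-/- hearts. Pdk1, the kinase that inhibits pyruvate dehydrogenase, was higher in Per2-/- hearts over the mean of the 4 treatments by 0.18 (adjusted p = 0.0359).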

How the data were processed

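The deposited values are log2 intensities per probe set, 1 column per array, which the authors made from the scanned arrays by robust multichip averaging (RMA) in Partek Genomics Suite 6.6. RMA corrects background, equalizes the probe distributions of the arrays and summarizes probes, so a shift shared by all genes would not be seen. The deposited values still differed in spread. Their interquartile range was 3.763 to 3.865 in wildtype I30 and 4.005 to 4.107 in wildtype sham arrays. In Per2-/- arrays it was 3.852 to 3.981 after I30 and 4.01 to 4.036 at sham. The methods name the Mouse Gene 1.1 ST array and the series text version 2.1. The probe pairing used here is that of the deposited platform. Probe sets with 1 symbol were kept, the brightest per gene (18820 genes). The precision is set by 3 arrays per group.

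limma 3.58.1 in R 4.3.3 gave each group its own mean and took the spread from all 24 arrays at once (16 residual degrees of freedom), with Benjamini-Hochberg adjustment over all genes and a threshold of 0.05. It was tested on simulated data. A 95% interval uses the moderated spread. The members and lists were chosen with earlier results of these data known. Named were members called in a comparison, the 5 largest rises and falls per comparison, isoform sets, core subunits, members on chromosome 1 and up to 4 genes of a list; further called genes of the pathway lists were chosen after their values were seen. Further marker lists read were endothelium (4 measured, 1 lower in wildtype I30 and 1 lower in Per2-/- I30R60 hearts), fibroblast (5, none called), macrophage (4, none called), brown fat (3, 1 lower in wildtype I30 hearts), atrial muscle (4, none called) and erythroid (1, higher after I30R60 over both genotypes). Promoter windows were matched by gene identifier. Alternatives were other scalings, moderation that follows intensity and is robust (changed together), array weights, dim genes left out, all probe sets averaged, only the groups compared, the methods' t-test (Student, 2-sided), a replicate block and arrays left out.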

Additional observations from a re-analysis of the deposited data

How the results depend on the processing

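None of the 3 called members changed sign in its comparison under any alternative, but 6 of 14 median member differences did under at least 1. Centring each array on its median moved the median member difference to 0.0054 (wildtype I30), 0.0775 (wildtype IP0), -0.0094 (Per2-/- I30), 0.0686 (Per2-/- IP0), 0.0016 (Per2-/- I30R60), -0.018 (Per2-/- minus wildtype, I30R60), 0.0021 (both genotypes, I30), 0.0632 (both, IP0) and -0.0026 (both, I30R60). Over all genes the medians with centring were, in the same order, 0.0342, 0.0582, 0.0115, 0.0598, 0.0066, 0.0263, 0.0219, 0.0582 and -0.0015. Members called in wildtype IP0 hearts numbered 2 with quantile normalization, 3 with intensity trend and robust moderation together and 2 with array weights. They numbered 3 without dim genes, and 0 with only the groups compared or by the methods' t-test. After IP0 in both genotypes they numbered 4 with centring, 1 with quantile normalization and 10 with trend and robust moderation. They were 4 with array weights, 6 without dim genes and 1 with only the groups compared. After I30R60 in both they numbered 0 with centring, 9 with trend and robust moderation and 2 with array weights. They were 4 without dim genes, and 0 with averaged probe sets or with only the groups compared. Without the 4 arrays of high Myl7, 1 wildtype sham array was left, so counts of that fit are not given. Trend and robust moderation gave 1 in wildtype I30R60 hearts, 1 for both genotypes after I30, 1 between genotypes after I30 (1 without dim genes) and 2 over the 4 treatments (1 with array weights, 1 without dim genes). The cause was not tested.

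Leaving out 1 array gave 1 to 2 called members in wildtype IP0 hearts, 1 to 3 after IP0 and 0 to 2 after I30R60 in both genotypes. It gave a median of -0.0468 to -0.0032 in wildtype I30R60 hearts and of -0.054 to -0.0054 between genotypes after I30R60. It turned the sign of the sham genotype median, from -0.0072 to 0.0095 without Per2-/- sham replicate 1, and of the IP0 medians, to at most 0.0035 in Per2-/- hearts and 0.0125 over both genotypes, which quantile normalization (0.0044 and 0.015) and leaving out the high-Myl7 arrays (0.0088 and 0.006) also turned. Other counts under leaving out 1 array were unchanged.

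Whether the replicate numbers pair the samples was not settled. Deviations of same-numbered arrays of different groups correlated at 0.0203 on average, and those of arrays with other numbers at -0.0101. In 1 of 28 pairs of groups all 3 were over 0.1, while 19 of 24 arrays correlated best with an array of their own number. With the replicate number as a block, 1 member was called after IP0 (Uqcrfs1, while Cox5a lost the call, adjusted p = 0.0653) and 0 after I30R60 (Ndufc1, adjusted p = 0.0517) in both genotypes, and no other count moved.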
